A study of Mus musculus with 12 samples.

Results

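Insulin glargine, a long-acting insulin analogue, was compared with Albulin, a single-chain insulin fused to albumin, by the liver transcripts of mice that received either protein. The comparison rests on 6 of the 12 arrays of the series, 3 from mice treated with insulin glargine and 3 from mice treated with Albulin, chosen by their titles. The other 6 arrays came from mice treated with Insulin-Apo, in which a single-chain insulin is joined to apolipoprotein A-I, and with saline, 3 each, and their levels are given beside those of the pair. All were wild type C57BL/6 mice, 6 weeks old by the labels, and the methods give the substrain C57BL/6J and an older age at purchase. Both insulins were injected subcutaneously at 55 nmol/kg and livers were taken after 6 h, so dose and time were matched. The methods of the array experiment describe the saline, Insulin-Apo and Albulin groups, and the insulin glargine arrays are described by the labels. Insulin glargine was the commercial preparation, and both fusion proteins were recombinant proteins made in bacteria. Liver RNA was read on Affymetrix whole-transcript mouse arrays with 28213 probe sets, each a set of probes for one gene or transcript, whose value is a log2 expression level. Of these, 26027 exceeded 5 in 2 or more of the 3 arrays of some group and were compared.

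Insulin acts on hepatocytes through its receptor, the IRS adaptors, phosphatidylinositol 3-kinase and AKT, which keeps FOXO1 out of the nucleus, lowers glucose output and raises glycolysis and lipid synthesis. The liver also answers cytokines, above all interleukin-6 acting through gp130, JAK1 and STAT3, by secreting acute phase proteins such as serum amyloid A, and SOCS3 closes that loop. Hepatocytes hold a circadian clock in which ARNTL and CLOCK drive the Per, Cry, Nr1d1 and Dbp genes, whose products feed back on it.

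Promoter windows are shown for 5 genes that differed between the insulins and that belong to the acute phase, chemokine and clock genes described next. Only windows that hold the marked motif are shown, so the 5 do not represent their lists. The windows came from RefSeq on build GRCm38.p6 and run from 250 bases before to 50 bases after the annotated start, and 133 of the 168 named genes had one. Both strands were searched for 5 motifs. The STAT motif TTCNNNGAA was in 8.30% of 32851 such windows, the NF-kB consensus in 8.46%, the E-box CACGTG in 7.15%, the D-box TTANGTAA in 2.32% and the ROR response element in 0.384%. Capitals mark the STAT motif in Socs3 and Fga, 2 overlapping matches of the NF-kB consensus in Cxcl1, the E-box in Cry1 and the ROR response element in Arntl.
Socs3, chr11:117969317-117969616, minus strand: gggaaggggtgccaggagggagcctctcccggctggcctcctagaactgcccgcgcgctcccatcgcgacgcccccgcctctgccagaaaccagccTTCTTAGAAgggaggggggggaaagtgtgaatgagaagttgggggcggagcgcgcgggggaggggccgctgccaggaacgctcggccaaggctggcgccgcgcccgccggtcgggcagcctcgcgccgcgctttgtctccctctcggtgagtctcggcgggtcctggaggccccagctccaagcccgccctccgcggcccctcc
Fga, chr3:83025903-83026202, plus strand: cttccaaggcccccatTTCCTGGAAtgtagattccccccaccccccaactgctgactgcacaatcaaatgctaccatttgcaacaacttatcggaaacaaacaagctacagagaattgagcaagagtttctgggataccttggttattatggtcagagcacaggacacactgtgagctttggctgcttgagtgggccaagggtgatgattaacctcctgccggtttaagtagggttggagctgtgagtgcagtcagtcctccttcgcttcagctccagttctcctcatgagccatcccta
Cxcl1, chr5:90890995-90891294, plus strand: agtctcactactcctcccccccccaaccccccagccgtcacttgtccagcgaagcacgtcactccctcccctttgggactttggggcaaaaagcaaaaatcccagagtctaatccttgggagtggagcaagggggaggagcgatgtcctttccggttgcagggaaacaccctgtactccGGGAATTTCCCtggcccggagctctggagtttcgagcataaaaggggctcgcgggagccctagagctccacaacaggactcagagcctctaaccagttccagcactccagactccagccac
Cry1, chr10:85185005-85185304, minus strand: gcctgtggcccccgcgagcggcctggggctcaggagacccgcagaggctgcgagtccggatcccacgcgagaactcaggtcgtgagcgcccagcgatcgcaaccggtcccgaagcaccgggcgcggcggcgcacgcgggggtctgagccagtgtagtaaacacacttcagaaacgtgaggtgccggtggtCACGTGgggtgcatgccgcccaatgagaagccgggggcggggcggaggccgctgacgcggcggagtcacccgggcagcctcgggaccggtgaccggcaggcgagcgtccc
Arntl, chr7:113207261-113207560, plus strand: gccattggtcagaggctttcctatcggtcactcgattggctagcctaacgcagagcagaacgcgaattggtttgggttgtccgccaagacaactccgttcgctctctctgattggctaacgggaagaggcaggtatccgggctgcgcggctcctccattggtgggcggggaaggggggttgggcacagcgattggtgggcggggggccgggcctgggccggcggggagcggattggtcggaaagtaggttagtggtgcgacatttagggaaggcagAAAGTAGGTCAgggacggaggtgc
The first base of the match lay 154 bases before the start in Socs3, 234 before it in Fga, 71 before it in Cxcl1 and 60 before it in Cry1, and at base 27 after the start in Arntl. Among the called genes of the acute phase list 11 had a window, and 4 of these (Apcs, Fga, Itih4 and Socs3) held the STAT motif. None of the 11 held the NF-kB consensus, the E-box or the D-box, and 1 (Apcs) held the ROR response element. These counts are of genes, which can have several windows, while the percentages above are of windows. Of 6 called clock genes with a window, 1 held the E-box (Cry1), 1 the ROR response element (Arntl) and none the D-box. The STAT motif was in 1 (Dbp) and the NF-kB consensus in 1 (Cry2). Of 2 called chemokine and cytokine genes with a window, 1 (Cxcl1) held the NF-kB consensus, and neither held any other of the motifs. The 4 called interleukin receptor and transducer genes with a window held none of the 5 motifs. A match describes letters in the window and says nothing of binding.

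Array 3 of insulin glargine stood apart from the other arrays. It correlated with its fellow arrays at 0.990 on average, against 0.993 for the other insulin glargine arrays and 0.995 to 0.997 for the 9 arrays of the other groups, and limma gave it a quality weight of 0.203 where the others had 0.758 to 1.51. Array medians lay between 7.70 and 7.77. Hepatocyte genes were at the top of the scale in both groups, with albumin (Alb) at 14.84 ± 0.03 after insulin glargine and 14.82 ± 0.02 after Albulin (log2, mean ± SD, n = 3 each), and none of 8 hepatocyte markers was called. Where the call of a gene named here was lost when 1 array was left out, the array, or the number of such arrays where there were 6 or more, is given with the log2 difference without it. Without array 3 of insulin glargine 32 of the named genes and list members changed their call, 16 lost and 16 gained. Whether each array came from its own mouse is not given in the sources, and p-values thus cover the spread among arrays, which may be technical.

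In the liver, 1133 of the 26027 probe sets differed between insulin glargine and Albulin, or 4.35%. Of these, 522 were higher after insulin glargine (2.01%) and 611 were lower (2.35%), and together they came from 967 genes with a symbol. A probe set was called where B, the log odds of differential expression in limma, was over 0, and the largest adjusted p of a call was 0.0097. In all 1133 the 3 arrays of one group lay above the 3 arrays of the other, and the same held for 23% of all probe sets compared. A log2 difference of at least 1 was seen in 254 of the called probe sets, 111 higher and 143 lower after insulin glargine. Without array 3 of insulin glargine 1193 probe sets were called, 608 higher and 585 lower, and 898 of them were among the 1133. Over all probe sets compared, the median log2 difference was -0.0064 and the 95% interval reached, in the median, 0.20 to either side.

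**Figure D1:**
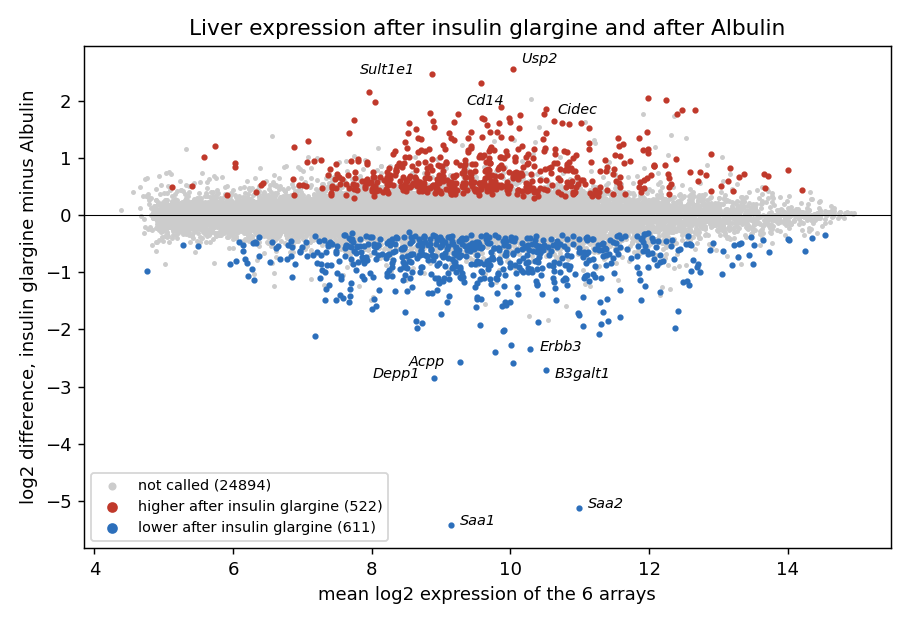
Log2 difference (insulin glargine minus Albulin) against the mean log2 expression of the 6 arrays, 1 point for each of the 26027 probe sets, with the 522 called higher in red and the 611 called lower in blue. Saa1 and Saa2 lie far below every other point at -5.43 and -5.12, and the largest difference upwards is that of Usp2 at 2.56.

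The saline arrays place both insulins beside a shared control. In the same fit, 1259 probe sets were called between insulin glargine and saline (4.84%, 583 or 2.24% higher and 676 or 2.6% lower) and 457 between Albulin and saline (1.76%, 278 or 1.07% higher and 179 or 0.688% lower). These comparisons share the saline arrays, so only their own values are set side by side. Among the 1133 probe sets that differed between both insulins, the saline mean was nearer the Albulin mean in 833 and nearer the insulin glargine mean in 300, where over all probe sets compared it was nearer the Albulin mean in 57.5%. The Insulin-Apo mean was nearer the Albulin mean in 1017 of the 1133, and in 60.7% of all probe sets compared.

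Acute phase genes were lower after insulin glargine than after Albulin, and serum amyloid A carried the largest differences of the whole comparison. Of 27 acute phase genes measured, 12 were called lower and 1, Cd14, was called higher, 48.1% where 4.35% of all probe sets were called. Negative differences were seen in 26 of the 27, with a median log2 difference of -0.42. Saa1 and Saa2 encode the serum amyloid A proteins that rise most steeply in plasma during inflammation. Saa1 (probe set 10563611) had log2 levels of 5.94, 6.67 and 6.67 after insulin glargine, against 12.18, 12.37 and 11.003 after Albulin, 11.82, 12.42 and 10.65 after Insulin-Apo and 5.98, 6.49 and 6.43 after saline. The insulin glargine arrays overlapped the saline arrays, and the Albulin and Insulin-Apo arrays lay far above both. Its level was 43.0-fold lower after insulin glargine (log2 difference -5.43, SE 0.42, adjusted p = 1.33e-05, limma). Saa2 (probe set 10553274) had 8.30, 8.60 and 8.39 after insulin glargine, against 13.72, 13.90 and 13.04 after Albulin and 8.16, 8.49 and 8.73 after saline, a difference of -5.12 (SE 0.27, adjusted p = 1.75e-06, limma). Saa1 and Saa2 are near-identical neighbours, and probes of one may read the other. Against saline, Saa1 differed by 0.13 after insulin glargine (adjusted p = 0.924) and by 5.55 after Albulin (adjusted p = 7.06e-05).

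The remaining acute phase genes differed less steeply. Orm2, an orosomucoid that binds basic drugs and lipids in plasma, had 11.44, 11.31 and 11.40 after insulin glargine, against 13.49, 13.49 and 13.08 after Albulin and 10.78, 10.91 and 10.85 after saline. It was lower after insulin glargine by a log2 difference of -1.97 (SE 0.18, adjusted p = 3.38e-05), and the insulin glargine arrays were 0.54 above saline, which was not called (adjusted p = 0.0731). Saa4, the constitutive serum amyloid A, had 11.82, 11.84 and 11.07 after insulin glargine, against 13.23, 13.43 and 13.10 after Albulin and 12.36, 12.61 and 12.58 after saline. Saa4 was therefore below saline after insulin glargine (-0.93, called) and had a difference of 0.74 from saline after Albulin that was not called (adjusted p = 0.044), and both insulins differed by -1.67. Apcs, serum amyloid P, a major acute phase protein of the mouse, was lower after insulin glargine by -1.15, the protease inhibitor Serpina3n by -0.63, the interleukin-1 receptor antagonist Il1rn by -0.59, Itih4 by -0.44 and Orm1 by -0.42. For the fibrinogen alpha chain Fga, probe set 10492748 gave -0.41 and probe set 10492755 gave -2.08, both called, so the size of its difference is uncertain. The gamma chain Fgg was lower by -0.35. Without array 3 of insulin glargine the calls of Il1rn (-0.53) and Orm1 (-0.35) were lost and those of Lcn2 (-1.15), Steap4 (-1.62) and the fibrinogen beta chain Fgb (-0.37) were gained, so that 13 members were called lower. Left out singly, Albulin arrays 1 and 2 and insulin glargine arrays 1 and 3 each ended the calls of Il1rn (-0.61 to -0.50) and Orm1 (-0.43 to -0.35), and Albulin array 1 that of Itih4 (-0.39). Lcn2, lipocalin 2, which withholds iron from bacteria, had 12.31, 12.91 and 13.51 after insulin glargine, against 13.79, 13.83 and 13.66 after Albulin, and was not called with all arrays (-0.85, adjusted p = 0.0549). Saa3 had a difference of -0.64 with a 95% interval from -1.89 to 0.62.

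**Figure D2:**
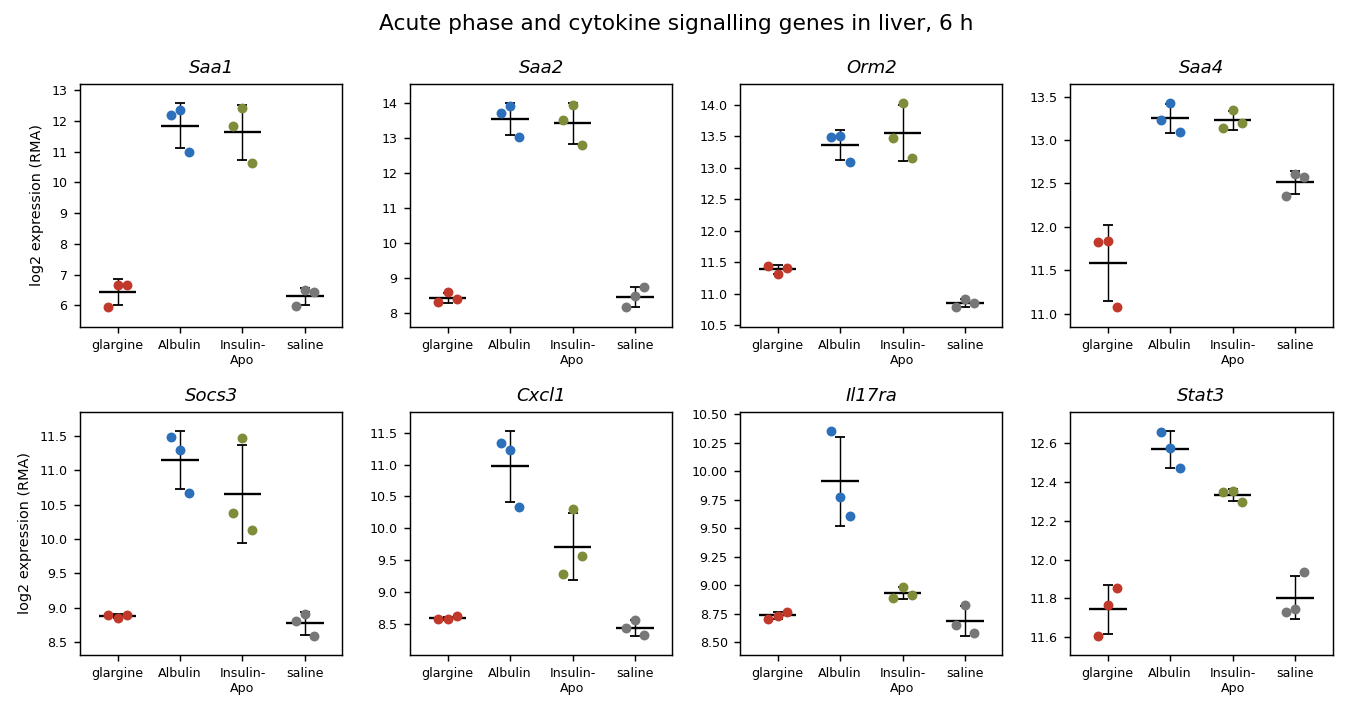
Log2 expression (RMA) of 8 acute phase and cytokine signalling genes in the 4 groups, insulin glargine, Albulin, Insulin-Apo and saline from left to right, 1 point per array, with the mean as a line and the SD as an error bar (n = 3). For Saa1, Saa2, Socs3, Cxcl1 and Stat3 the insulin glargine arrays lie beside the saline arrays, while the Albulin arrays lie above; the scale differs between panels.

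The receptors and transducers of interleukin-6, interleukin-1 and interleukin-17 followed in part. Of 13 measured genes, 5 were called lower after insulin glargine and none higher, with a median log2 difference of -0.08. That is 38.5% of the list beside 4.35% of all probe sets. Stat3, the transcription factor that carries the interleukin-6 signal to acute phase genes, had 11.61, 11.77 and 11.86 after insulin glargine, against 12.66, 12.57 and 12.47 after Albulin and 11.73, 11.75 and 11.93 after saline, a difference of -0.82 (SE 0.08, adjusted p = 9.68e-05). Il17ra, a receptor subunit for interleukin-17, had 8.71, 8.74 and 8.77 after insulin glargine, against 10.35, 9.78 and 9.61 after Albulin, a difference of -1.18 (adjusted p = 0.00034), and its Insulin-Apo arrays lay at 8.89 to 8.99. Albulin thus stood alone at the high level of Il17ra among the 4 groups. Il6st, which encodes gp130, was lower by -0.70, the oncostatin M receptor Osmr by -0.67 and the kinase Jak1 by -0.36. The call of Jak1 was lost in 16 of 24 alternative settings, among them 9 that left out 1 array (-0.40 to -0.32), and that of Osmr in 13, among them 9 that left out 1 array (-0.70 to -0.51). Both calls were lost without array 3 of insulin glargine, Jak1 at -0.36 and Osmr at -0.67, and the TNF receptor Tnfrsf1a was called lower (-0.65) and Tnfrsf1b higher (0.66). Socs3 (probe set 10393449), whose product inhibits gp130 signalling, had 8.90, 8.85 and 8.89 after insulin glargine, against 11.48, 11.30 and 10.68 after Albulin, 10.38, 11.47 and 10.12 after Insulin-Apo and 8.80, 8.92 and 8.59 after saline. Its difference was -2.27 (SE 0.28, adjusted p = 0.000345), and a dimmer probe set of Socs3 gave -0.76, also called.

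Of 20 chemokines and cytokines measured, Cxcl1 and Cxcl13 were called lower and Il10 was called higher after insulin glargine, 15% of the list where 4.35% of all probe sets were called, with a median log2 difference of -0.09. Cxcl1, a chemokine that draws neutrophils, had 8.57, 8.57 and 8.61 after insulin glargine, against 11.35, 11.24 and 10.33 after Albulin, 9.28, 10.30 and 9.56 after Insulin-Apo and 8.43, 8.56 and 8.31 after saline. The difference was -2.39 (SE 0.26, adjusted p = 0.000139). Cxcl13, which attracts B cells, had 10.33, 10.79 and 9.09 after insulin glargine, against 11.79, 12.18 and 12.08 after Albulin, a difference of -1.95 (SE 0.35, adjusted p = 0.00404). Il10, an anti-inflammatory cytokine, was close to the lower end of the scale, with 6.36, 6.84 and 5.81 after insulin glargine, against 5.30, 5.06 and 5.04 after Albulin (1.20, adjusted p = 0.00307). The calls of Cxcl13 (-1.91 to -1.87) and Il10 (1.16 to 1.17) were each lost without Albulin array 2 and without Albulin array 3. Among 17 genes of endotoxin sensing and NF-kB feedback the adaptor Myd88 was called lower (-1.14, adjusted p = 0.000193) and none higher. That is 5.88% of the list, near the 4.35% of all probe sets. Cd14, the co-receptor for endotoxin, was counted in the acute phase list and not among these genes, and it moved against that list. It had 10.69, 10.96 and 10.55 after insulin glargine, against 8.56, 8.48 and 8.25 after Albulin and 7.93, 7.86 and 8.09 after saline. All insulin glargine arrays of Cd14 lay above all others, by 2.30 over Albulin (SE 0.15, adjusted p = 5.12e-06) and by 2.77 over saline. Of 15 interferon response genes, the transcription factor Irf1 was called lower (-1.10) and the ISG15 protease Usp18 higher (1.06), or 13.3%. A second, dimmer probe set of Irf1 gave -0.07. The call of Usp18 was lost in 9 of 24 alternative settings, among them 7 that left out 1 array (0.87 to 1.06). Stat2 was called lower (-0.73) without array 3 of insulin glargine.

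Some markers of neutrophils and B cells were lower after insulin glargine. Of 13 neutrophil markers 7 were called lower and none higher, with a median log2 difference of -0.51. That is 53.8% of the markers beside 4.35% of all probe sets. Cxcr2, the receptor for CXCL1, had 6.23, 6.56 and 6.16 after insulin glargine, against 7.51, 7.25 and 7.43 after Albulin and 6.59, 6.03 and 6.80 after saline, a difference of -1.08 (adjusted p = 0.00259). S100a8, a subunit of calprotectin, had 6.86, 6.70 and 6.92 after insulin glargine, against 8.16, 7.64 and 7.66 after Albulin and 6.86, 6.85 and 6.91 after saline (-0.996, adjusted p = 0.00336). For both genes the insulin glargine arrays overlapped the saline arrays, and the Albulin arrays lay above. Retnlg was lower by -1.09, S100a9 by -0.73, the surface marker Ly6g by -0.72, the G-CSF receptor Csf3r by -0.51 and the gelatinase Mmp9 by -0.44, the last in a call lost in 17 of 24 alternative settings. The granule genes Camp (0.07), Ltf (0.06), Elane (-0.02) and Mpo (-0.19) differed little and were not called. Mmp8, also a granule gene, was not called either. Its difference lay between -1.35 and -0.81 over the 24 alternative settings, and it was called in 3 of them. Most of these markers were dim, Ly6g at 6.01 ± 0.27 after insulin glargine and 6.73 ± 0.22 after Albulin. Summed on the linear scale, the 13 markers ranged from 1625 to 1823 units after insulin glargine, 2441 to 2790 after Albulin, 2183 to 2477 after Insulin-Apo and 1800 to 2010 after saline. In whole liver, fewer cells of a type and less RNA per cell cannot be told apart. The part of neutrophils in the acute phase differences was not tested. Without array 3 of insulin glargine the calls of Retnlg (-0.996) and Mmp9 (-0.45) were lost and 5 neutrophil markers were called lower, and 3 were without insulin glargine array 1, without Albulin array 1 or without Albulin array 2. Left out singly, Albulin array 1, Albulin array 2 and insulin glargine array 1 also ended the calls of Retnlg (-1.14 to -0.95) and Csf3r (-0.50 to -0.48), Albulin array 1 and insulin glargine array 2 that of S100a8 (-0.93 to -0.82), and Albulin arrays 2 and 3 and insulin glargine arrays 1 and 2 that of Ly6g (-0.74 to -0.57). The call of Mmp9 was lost when any 1 of 11 arrays was left out (-0.49 to -0.33).

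Of 6 B cell markers, Cd79b, part of the B cell receptor (-0.74), and Ms4a1, which encodes CD20 (-0.94), were called lower, or 33.3%. The call of Ms4a1 was lost without Albulin array 3 or any 1 insulin glargine array (-0.99 to -0.91, with -0.91 without array 3). The 6 markers summed to 878 to 949 units after insulin glargine and 1111 to 1321 after Albulin. Among 14 macrophage markers, Kupffer cell genes included, only Lyz2, lysozyme, was called (-0.78), or 7.14% beside the 4.35% of all probe sets. That call was lost without any 1 Albulin array (-0.80 to -0.73). Of the 14 differences 13 were negative, with a median of -0.32. The Kupffer cell gene Clec4f had a difference of 0.01 (adjusted p = 0.992) and Timd4 of -0.06 (adjusted p = 0.932). The 14 macrophage markers summed to 19130, 23309 and 14161 units in the 3 insulin glargine arrays and 23268 to 27129 after Albulin, so array 3 of insulin glargine was the lowest of all. None of 12 T cell and NK cell markers was called, none of 10 stellate cell and fibroblast markers, none of 5 cholangiocyte markers and none of 9 markers of dividing cells. Kdr, the main receptor for VEGF-A, was the 1 call among 10 markers of sinusoidal endothelium (-0.66), or 10%. Sums of the T and NK cell genes, 1589 to 1659 after insulin glargine and 1637 to 1763 after Albulin, overlapped.

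Clock genes differed in both directions, by up to 2.56 on the log2 scale. Of 18 measured, 5 were called higher after insulin glargine and 2 lower, with a median log2 difference of 0.25. These calls are 38.9% of the list, where 4.35% of all probe sets were called. The sources used here give neither the time of day at which livers were taken nor processing sets for any group, so a difference in either cannot be told apart from a difference between the insulins on these genes. On the side of the activators, Arntl, which encodes BMAL1, had 10.40, 10.06 and 10.34 after insulin glargine, against 8.94, 8.80 and 8.98 after Albulin, 9.39, 8.55 and 8.79 after Insulin-Apo and 8.58, 8.05 and 8.27 after saline. All 3 insulin glargine arrays lay above the other 9, and the difference from Albulin was 1.36 (SE 0.19, adjusted p = 0.000636). Nr1d1, which encodes REV-ERB alpha, a repressor of Arntl, had 9.75, 10.76 and 10.56 after insulin glargine, against 12.29, 12.33 and 12.16 after Albulin and 12.02, 12.07 and 11.88 after saline, a difference of -1.90 (SE 0.21, adjusted p = 0.000142). Dbp, an output factor that binds D-boxes, had 8.80, 8.90 and 8.64 after insulin glargine, against 10.27, 10.37 and 10.10 after Albulin and 11.03, 11.47 and 11.16 after saline, a difference of -1.46 (SE 0.19, adjusted p = 0.000513). For Dbp the groups thus formed 3 levels, with Albulin between insulin glargine and saline.

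Among the repressors, Cry1 had 9.42, 9.35 and 9.23 after insulin glargine, against 8.02, 7.84 and 8.10 after Albulin and 7.86, 7.92 and 7.83 after saline, a difference of 1.35 (SE 0.09, adjusted p = 5.94e-06). Cry2 was higher by 0.52 and Per2 by 0.53. The call of Per2 was lost when any 1 of 6 arrays was left out (0.43 to 0.56), among them array 3 of insulin glargine (0.43), and that of Cry2 without Albulin array 2 or 3 or insulin glargine array 1 or 2 (0.44 to 0.53). Without array 3 of insulin glargine the activators Clock (0.41) and Rora (0.59) were called higher. Per1 (0.73, adjusted p = 0.0378), Per3 (-0.53, adjusted p = 0.0312) and Nr1d2 (-0.73, adjusted p = 0.0151) had B below 0 and were not called. Usp2, a deubiquitinase with a daily rhythm in liver, had the largest difference upwards of the called genes. It had 11.35, 11.61 and 10.97 after insulin glargine, against 8.60, 8.71 and 8.95 after Albulin, 8.38, 8.32 and 9.27 after Insulin-Apo and 10.52, 10.73 and 10.58 after saline, a 5.88-fold difference (log2 2.56, SE 0.22, adjusted p = 2.82e-05). Against saline, Usp2 was lower after Albulin (-1.86, called) and differed by 0.70 after insulin glargine, which was not called (adjusted p = 0.0651).

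**Figure D3:**
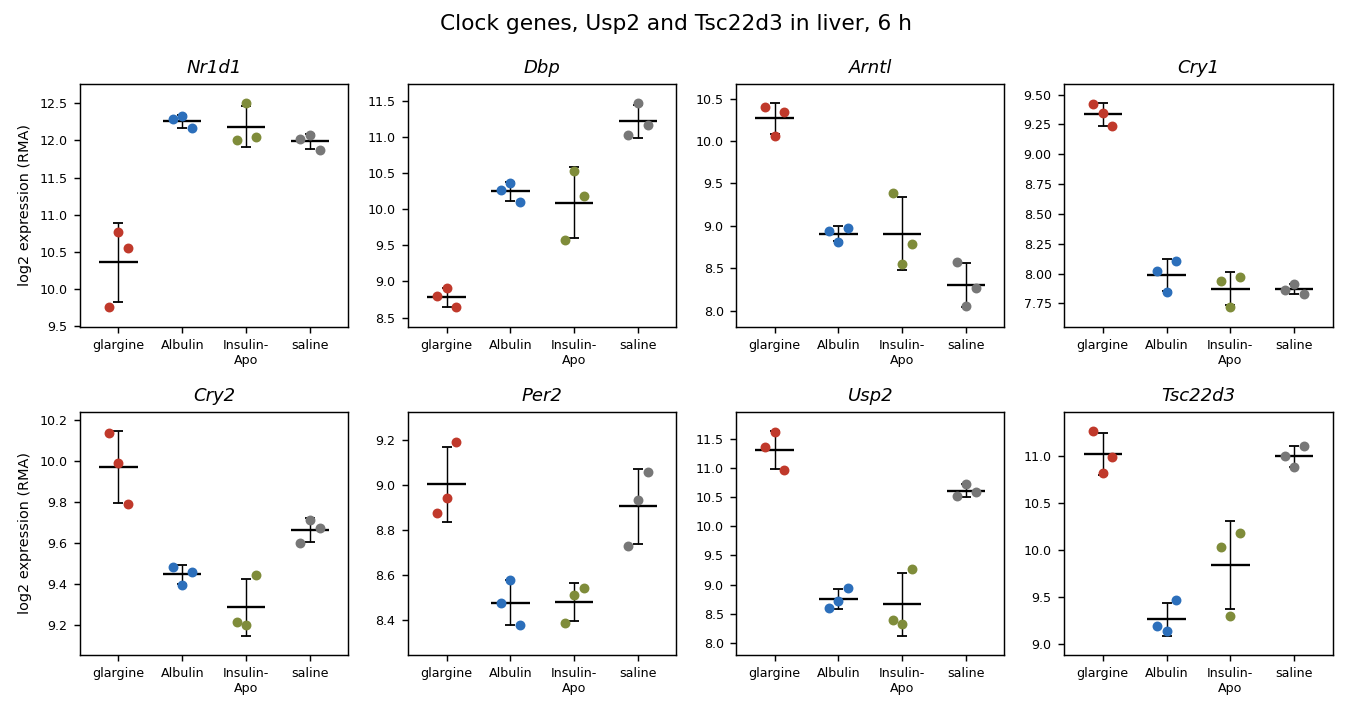
Log2 expression (RMA) of 7 clock genes, Usp2 included, and of Tsc22d3 in the 4 groups, insulin glargine, Albulin, Insulin-Apo and saline from left to right, 1 point per array, with the mean as a line and the SD as an error bar (n = 3). Nr1d1 and Dbp are lowest and Arntl and Cry1 highest after insulin glargine, whereas the Usp2 and Tsc22d3 means are lower after Albulin and Insulin-Apo than after saline.

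Glucocorticoid-responsive genes included 2 calls among 12 measured (16.7%, against 4.35% of all probe sets). Both were higher after insulin glargine, and the median log2 difference of the list was 0.24. Tsc22d3, which encodes GILZ, had 11.26, 10.81 and 10.98 after insulin glargine, against 9.19, 9.14 and 9.46 after Albulin, 10.03, 9.30 and 10.18 after Insulin-Apo and 10.997, 10.88 and 11.10 after saline. The insulin glargine and saline arrays overlapped, and the difference between the insulins was 1.75 (SE 0.19, adjusted p = 0.000141). Dusp1, a phosphatase of MAP kinases, had 12.85, 12.26 and 12.49 after insulin glargine, against 11.16, 11.12 and 11.28 after Albulin (1.34, adjusted p = 0.000199). Fkbp5 had 11.71, 11.81 and 12.02 after insulin glargine, against 10.44, 10.39 and 10.96 after Albulin, and was not called (1.25, adjusted p = 0.0317).

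Lipogenic genes divided. Of 21 measured, Acly and Acaca were called lower after insulin glargine than after Albulin and Fads2 was called higher. That is 14.3% of the list beside 4.35% of all probe sets, with a median log2 difference of -0.02. Acly, ATP citrate lyase, makes cytosolic acetyl-CoA, and it had 10.83, 10.56 and 10.27 after insulin glargine, against 11.82, 11.26 and 11.76 after Albulin, 10.42, 9.96 and 9.89 after Insulin-Apo and 10.02, 10.12 and 10.06 after saline. The difference between the insulins was -1.06 (SE 0.17, adjusted p = 0.00229). Acaca, acetyl-CoA carboxylase, had 10.16, 10.54 and 10.54 after insulin glargine, against 11.56, 11.26 and 11.52 after Albulin and 10.29, 9.81 and 10.08 after saline (-1.03, adjusted p = 0.000436). For these genes the insulin glargine means were 0.49 and 0.36 above saline, neither called, while the Albulin means were 1.55 and 1.39 above saline, both called. Fasn, fatty acid synthase, had 10.66, 10.88 and 11.57 after insulin glargine, against 11.58, 10.89 and 11.64 after Albulin and 10.23, 9.81 and 9.79 after saline. Its arrays overlapped between the insulins, with a difference of -0.33 and a 95% interval from -0.85 to 0.19 (adjusted p = 0.506). Against saline, Fasn was higher by 1.42 after Albulin, which was called, and by 1.09 after insulin glargine, which was not (adjusted p = 0.0109). Fasn was called in 1 of 24 alternative settings (-0.84), which left out both array 3 of insulin glargine and array 2 of Albulin. That setting was chosen after seeing the data, as these arrays had the smallest SD over probe sets of the 12 (2.11 and 2.14). It removes the highest insulin glargine array of Fasn and the lowest Albulin array, so it cannot decide whether Fasn differed.

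Other genes of the same pathway had no common direction. Elovl6, which elongates palmitate, had a difference of -0.90 (adjusted p = 0.0108), the desaturase Scd1 of -0.16 (95% interval -0.56 to 0.23), Thrsp of 0.68 (adjusted p = 0.0606), the transcription factor Srebf1 of 0.33 (95% interval -0.04 to 0.69) and Lpin1 of 1.39 (adjusted p = 0.0548), and none of these was called. Fads2, a fatty acid desaturase, was higher by 0.59, a call lost in 14 of 24 alternative settings, among them 9 that left out 1 array (0.49 to 0.64, with 0.49 without array 3 of insulin glargine). Without that array Mlxipl, which encodes ChREBP, was called lower (-0.87). Of 6 genes that supply NADPH, Pgd of the pentose phosphate pathway was called lower (-0.83, adjusted p = 0.000734) and Idh1 too (-0.48, adjusted p = 0.00252). That is 33.3% of the list beside 4.35% of all probe sets. Pklr, the liver pyruvate kinase, was the 1 call among 11 genes of glucose uptake and glycolysis, or 9.09%. It had 10.94, 10.59 and 10.53 after insulin glargine, against 12.53, 12.24 and 12.66 after Albulin, 11.88, 11.42 and 11.30 after Insulin-Apo and 11.54, 11.25 and 11.11 after saline. Its insulin glargine arrays were the lowest and its Albulin arrays the highest of the 4 groups, and the difference was -1.79 (SE 0.17, adjusted p = 5.25e-05).

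Among 20 genes of insulin signalling, 4 were called higher after insulin glargine and 1 lower, with a median log2 difference of 0.0060. That is 25% of the list beside 4.35% of all probe sets. Irs1, an adaptor of the insulin receptor, had 9.32, 9.18 and 9.34 after insulin glargine, against 7.94, 8.01 and 8.45 after Albulin and 9.08, 8.77 and 8.90 after saline (1.14, SE 0.14, adjusted p = 0.000328), and a dim second probe set gave 0.29. Pik3r1, the regulatory subunit of phosphatidylinositol 3-kinase, had 12.02, 12.16 and 11.92 after insulin glargine, against 10.86, 10.98 and 11.09 after Albulin and 11.11, 11.16 and 11.38 after saline (1.06, SE 0.10, adjusted p = 4.07e-05). The 2 genes differed in where saline lay: Irs1 was below saline after Albulin (-0.78, called), and Pik3r1 was above saline after insulin glargine (0.81, called). Foxo1, the transcription factor that AKT restrains, was higher by 1.11 and the receptor-binding adaptor Grb14 by 0.77. The kinase Akt2 was lower by -0.48 at its brighter probe set, and its other probe set gave -0.54, also called. The call of Foxo1 was lost in 4 of 24 alternative settings, among them those without Albulin array 1, Albulin array 2 or insulin glargine array 1 (1.001 to 1.07). That of the brighter Akt2 probe set was lost in 8, among them those without any 1 Albulin array or without insulin glargine array 1 or 2 (-0.51 to -0.42). The insulin receptor Insr (-0.27, adjusted p = 0.0281) and Irs2 (-0.56, adjusted p = 0.134) were not called. Of genes that insulin represses in liver, Igfbp1 had 13.62, 13.79 and 13.21 after insulin glargine, against 13.21, 12.53 and 13.28 after Albulin (0.53, 95% interval -0.03 to 1.10), Pck1 a difference of -0.29 and G6pc of 0.30, and none was called. No gene of 13 in the growth hormone and IGF axis was called.

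**Figure D4:**
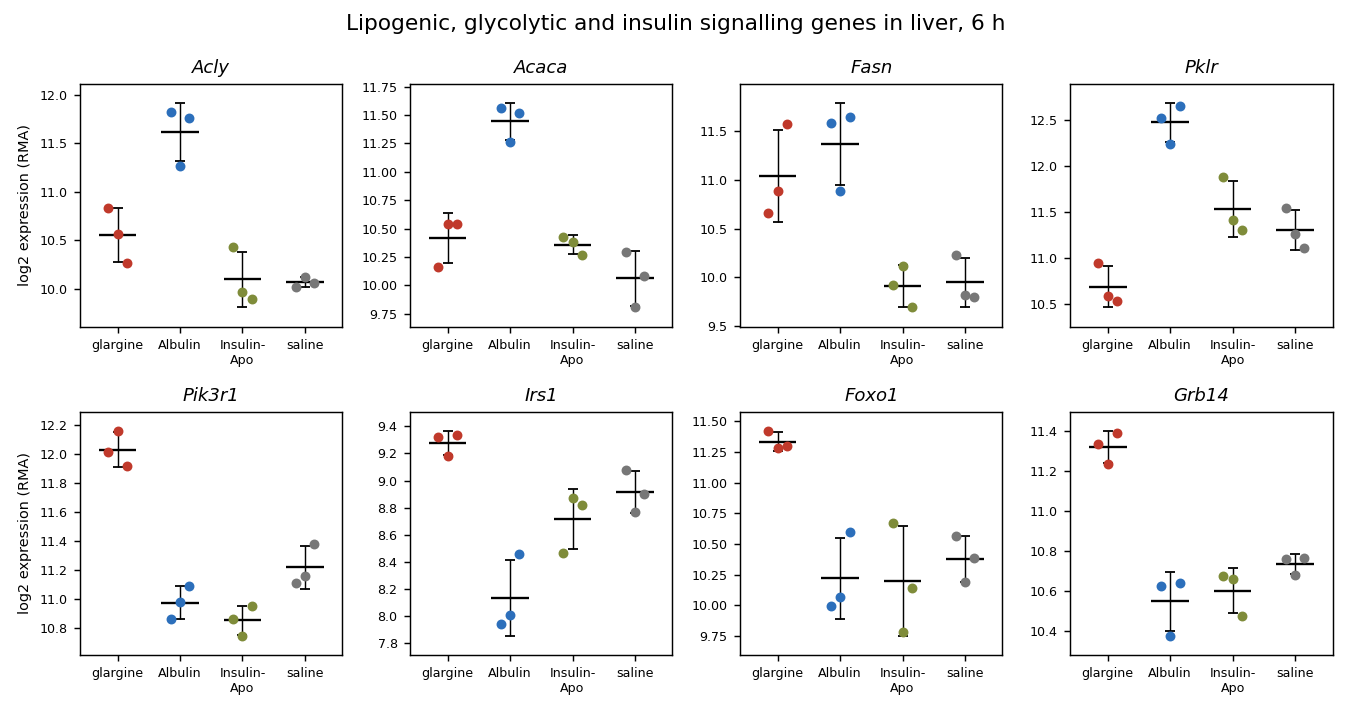
Log2 expression (RMA) of 8 lipogenic, glycolytic and insulin signalling genes in the 4 groups, insulin glargine, Albulin, Insulin-Apo and saline from left to right, 1 point per array, with the mean as a line and the SD as an error bar (n = 3). Acly, Acaca and Pklr are highest after Albulin, Fasn overlaps between insulin glargine and Albulin, and Pik3r1, Foxo1 and Grb14 are highest after insulin glargine.

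Cyp7a1, the rate-limiting enzyme of bile acid synthesis, had 13.18, 13.13 and 13.37 after insulin glargine, against 12.19, 11.21 and 11.09 after Albulin, 11.18, 10.12 and 12.88 after Insulin-Apo and 13.63, 13.75 and 13.52 after saline. The insulin glargine arrays lay above the Albulin arrays and below the saline arrays. The difference of 1.73 (95% interval 0.64 to 2.82) was not called in the fit of all arrays (adjusted p = 0.0505). It was called without Insulin-Apo array 3 and in a fit of the 6 insulin glargine and Albulin arrays. Of 14 genes of bile acid synthesis and its control, Fgfr4, the receptor for FGF15, was called higher (0.55) and the bile acid carrier Slco1b2 lower (-0.38). These are 14.3% of the list beside 4.35% of all probe sets. Both calls were lost without Albulin array 2 or insulin glargine array 2, and that of Slco1b2 also without Albulin array 3 (Fgfr4 0.48 to 0.50, Slco1b2 -0.36 to -0.35). Of 18 genes of cholesterol synthesis and LDL uptake, the sterol enzymes Lss (1.14, adjusted p = 0.00034) and Dhcr7 (0.68) were called higher and Fdft1, squalene synthase, lower (-0.61). That is 16.7% of the list, with a median log2 difference of -0.12. The call of Dhcr7 was lost without Albulin array 2 (0.64) and that of Fdft1 without insulin glargine array 2 (-0.59), and Hsd17b7 was called higher without array 3 of insulin glargine (0.64). For Fdft1 a dimmer probe set gave -0.96 and was not called. Among 18 apolipoprotein and lipoprotein genes, Angptl8, an inhibitor of lipoprotein lipase, was called higher and Apoa5 lower (-0.52), or 11.1%. The call of Apoa5 was lost without Albulin array 1 or 3 (-0.52 to -0.50). Angptl8 had 11.12, 11.07 and 10.28 after insulin glargine, against 8.76, 9.35 and 9.27 after Albulin and 10.74, 10.67 and 11.01 after saline (1.70, SE 0.26, adjusted p = 0.00132). Its insulin glargine arrays overlapped saline and its Albulin arrays lay below. Apoa1, which encodes apolipoprotein A-I, had a difference of 0.05 (95% interval -0.07 to 0.18).

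Of 24 genes of fatty acid oxidation and other PPAR alpha targets, 2 were called (8.33%, against 4.35% of all probe sets), Cidec and Plin5, which encode proteins of the lipid droplet surface. Cidec had 11.13, 11.04 and 12.17 after insulin glargine, against 9.43, 9.72 and 9.62 after Albulin and 9.91, 9.16 and 10.01 after saline (1.85, SE 0.36, adjusted p = 0.00658). The call of Cidec was lost in 6 of 24 alternative settings, among them those without any 1 Albulin array or without array 3 of insulin glargine (1.49 to 1.92, with 1.49 without array 3). Plin5 had 11.83, 11.45 and 12.19 after insulin glargine, against 10.14, 10.03 and 10.51 after Albulin and 10.57, 9.97 and 10.06 after saline (1.60, SE 0.19, adjusted p = 0.000292). Both genes were also above saline after insulin glargine, Cidec by 1.75 and Plin5 by 1.62, each called. Plin2, a further droplet protein, had a difference of -0.20 (95% interval -0.62 to 0.22) and Cpt1a, carnitine palmitoyltransferase, of -0.15, neither called.

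Amino acid enzymes were higher after insulin glargine in part. Of 13 genes of the urea cycle and amino acid catabolism 11 differences were positive, with a median of 0.31. Agxt and Aass were called, or 15.4% beside the 4.35% of all probe sets. Agxt, the peroxisomal alanine-glyoxylate aminotransferase, had 13.29, 12.99 and 13.57 after insulin glargine, against 11.78, 11.50 and 11.28 after Albulin and 11.55, 11.96 and 11.68 after saline (1.77, SE 0.22, adjusted p = 0.000377). Aass, which degrades lysine, was higher by 0.47, a call lost without Albulin array 1 or 3 or insulin glargine array 1 or 2 (0.42 to 0.49). Of 11 genes of gluconeogenesis, the aminotransferases Got1 (0.79, adjusted p = 0.00132) and Gpt (0.83, adjusted p = 0.00554) were called higher, or 18.2%. The call of Gpt was lost without Albulin array 1 or 3 or insulin glargine array 1 or 3 (0.68 to 0.86, with 0.68 without insulin glargine array 3). Ppargc1a, the coactivator PGC-1 alpha, was not called at its brighter probe set (1.32), which was called higher without that array (1.73). The dimmer probe set of Ppargc1a was called higher with all arrays (1.63, adjusted p = 0.00851, limma). Etnppl, which breaks down phosphoethanolamine, was among the 12 largest differences upwards, with 13.31, 13.28 and 12.42 after insulin glargine, against 10.93, 10.96 and 10.98 after Albulin (2.05, SE 0.22, adjusted p = 0.000136). Of 14 amino acid transporters the glutamine carrier Slc1a5 was called higher (0.42), or 7.14%. That call was lost in 16 of 24 alternative settings, among them 10 that left out 1 array (0.34 to 0.42, with 0.41 without array 3 of insulin glargine). Without that array the arginine carrier Slc7a2 was called higher (0.43).

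Of 16 genes of the ATF4 and CHOP response 1 was called, a share of 6.25% beside the 4.35% of all probe sets. Chac1, which degrades glutathione, was lower, with 8.52, 8.72 and 8.55 after insulin glargine, against 11.14, 10.20 and 10.24 after Albulin and 8.98, 8.79 and 8.75 after saline (-1.93, SE 0.19, adjusted p = 6.90e-05). Of 23 endoplasmic reticulum chaperones and genes of the unfolded protein response, Derl1 was the 1 call (-0.33), or 4.35%, the share of all probe sets. That call was lost in 18 of 24 alternative settings, among them 11 that left out 1 array (-0.35 to -0.28, with -0.28 without array 3 of insulin glargine). Of the 23 differences 18 were negative, with a median of -0.10. The chaperone Hspa5 went against that direction, with a difference of 0.19 (95% interval -0.02 to 0.39). The immediate early genes Junb (-1.15) and Egr1 (-1.27) were called lower and Gadd45b (1.88) and Dusp1 higher among 24 measured, or 16.7% called. The call of Egr1 was lost without Albulin array 1 or 2 or any 1 insulin glargine array (-1.34 to -1.05, with -1.34 without array 3). No gene was called among 26 of ribosome biogenesis, 15 heat shock proteins, 29 proteasome genes and 14 hepatokines and inhibin subunits, of which Inhbe (-1.21, adjusted p = 0.0298) was called without array 3 of insulin glargine (-1.51). Of 27 respiratory chain genes Ndufa5 was called (0.46), of 18 coagulation and complement genes Mbl1 (-0.49) and of 15 autophagy and lysosome genes Atg14 (-1.11). These shares of 3.70%, 5.56% and 6.67% were near the 4.35% of all probe sets. In the respiratory chain list 22 differences were positive (median 0.10). In the coagulation and complement list 17 were negative (median -0.17), and in the autophagy and lysosome list 10 were (median -0.13). Of 20 xenobiotic enzymes Sult1a1 (0.49) and Alas1 (-0.87) were called, or 10%. The call of Sult1a1 was lost in 14 of 24 alternative settings, among them 9 that left out 1 array (0.39 to 0.52, with 0.45 without array 3 of insulin glargine). Without that array C4b was called lower (-0.40) and Cyp17a1 higher (0.63).

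**Figure D5:**
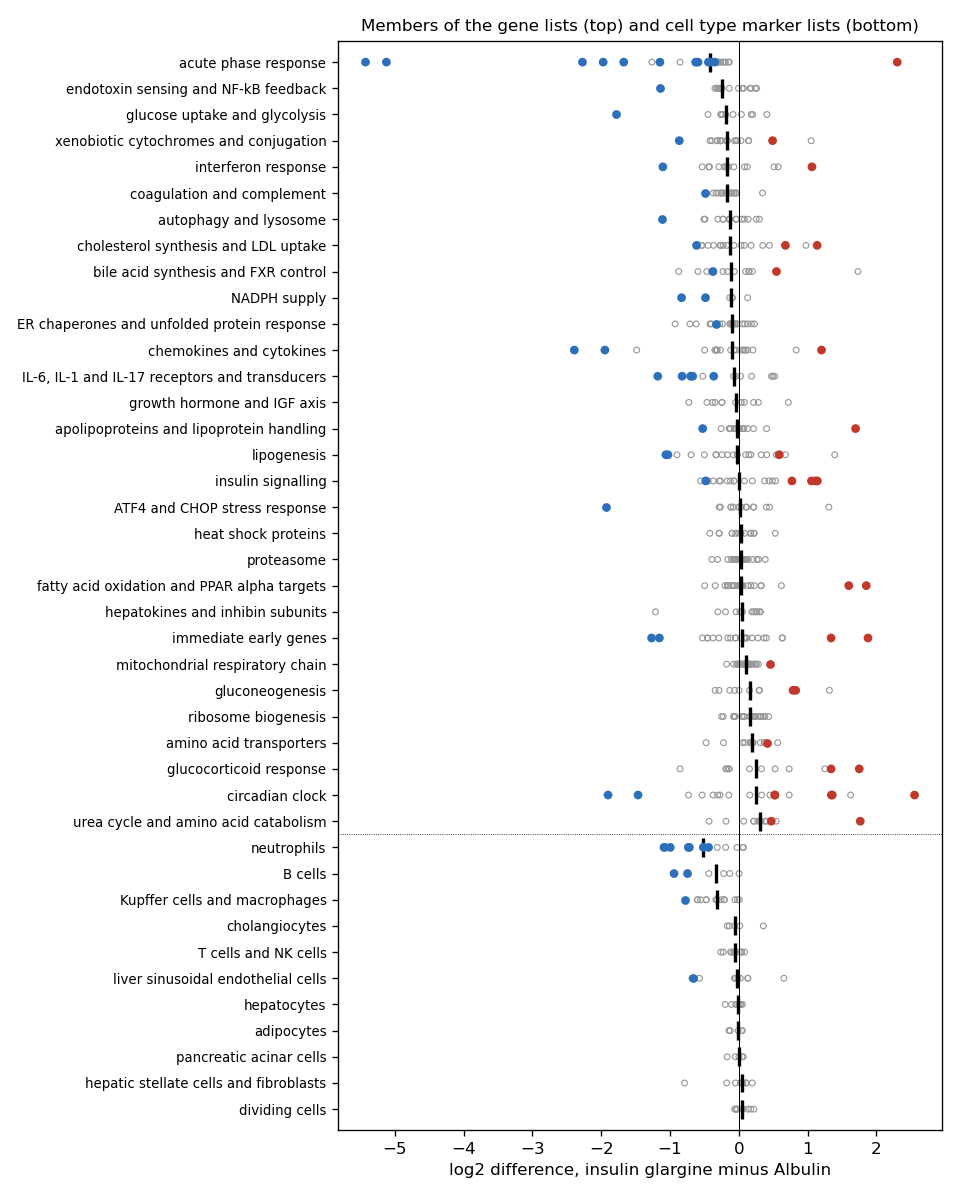
Log2 difference (insulin glargine minus Albulin) of each measured member of the gene lists, above the dotted line, and of the cell type marker lists with 5 or more measured members, below it. Filled points are called members, red higher and blue lower after insulin glargine, open points are not called, and the black tick is the median. The acute phase list has 12 filled points on the lower side, the neutrophil list 7, and the clock list has filled points on both sides.

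The remaining large differences were spread over genes of other functions. B3galt1, a galactosyltransferase, had 8.39, 9.27 and 9.80 after insulin glargine, against 12.17, 11.73 and 11.72 after Albulin and 9.34, 9.49 and 9.66 after saline (-2.72, SE 0.29, adjusted p = 0.000122). Efna1, a membrane ligand of EPH receptors, had 8.61, 9.21 and 8.42 after insulin glargine, against 11.82, 11.31 and 10.85 after Albulin and 8.94, 9.60 and 9.04 after saline (-2.58, SE 0.31, adjusted p = 0.000268). The acid phosphatase Acpp differed by -2.58 and Dnajc12, a co-chaperone of aromatic amino acid hydroxylases, by -2.03. These 4 genes were above saline after Albulin, by 2.38, 2.14, 1.65 and 1.61, each called. Acpp was also below saline after insulin glargine (-0.93, called), while the others were not called there. Depp1, a FOXO target, had 6.93, 8.33 and 7.18 after insulin glargine, against 10.89, 10.13 and 9.95 after Albulin and 9.56, 9.33 and 9.37 after saline (-2.85, SE 0.34, adjusted p = 0.000253). Depp1 was thus below saline after insulin glargine, by -1.94, as was Meiob, a meiosis gene, by -1.78. Atp1b1, the beta subunit of the sodium pump, had 13.54, 13.45 and 13.19 after insulin glargine, against 11.50, 11.49 and 11.70 after Albulin and 12.16, 12.20 and 12.25 after saline (1.83, SE 0.11, adjusted p = 4.37e-06). For Atp1b1 saline lay between both insulins, and both differed from it, by 1.19 after insulin glargine and -0.64 after Albulin. Sult1e1, the estrogen sulfotransferase, varied widely, with 9.38, 11.25 and 9.66 after insulin glargine, against 7.43, 7.80 and 7.69 after Albulin and 8.04, 9.45 and 9.77 after saline. Its difference of 2.46 (SE 0.49, adjusted p = 0.00737) was called, a call lost in 6 of 24 alternative settings, among them those without any 1 Albulin array, Insulin-Apo array 1 or insulin glargine array 2 (1.88 to 2.54), and the insulin glargine and saline arrays overlapped.

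Of 10 genes of pericentral hepatocytes only Lgr5, a receptor for R-spondins that marks cells at the central vein, was called. That is 10% of the list beside 4.35% of all probe sets. Lgr5 had 7.75, 7.92 and 7.65 after insulin glargine, against 9.96, 9.38 and 9.66 after Albulin and 9.34, 8.93 and 9.31 after saline (-1.89, SE 0.17, adjusted p = 3.30e-05). The pericentral genes Glul (-0.33, called at -0.47 without array 3 of insulin glargine), Cyp2e1 (0.03) and Axin2 (0.11) were not called with all arrays. Of 9 periportal genes only the protease Ctsc was called (-1.01), or 11.1%.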

How the data were processed

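The authors extracted liver RNA, amplified it to biotinylated cRNA and hybridized it to Affymetrix whole-transcript mouse gene arrays. The deposited values are log2 expression values made by the authors with RMA (background correction, normalization and summary of probes). Not given in the sources used here were the RMA version, the annotation build and whether RMA was run on the 12 arrays jointly. Groups came from the sample labels. Of 28213 probe sets, 21640 had 1 gene symbol in the platform annotation, 1321 several and 5252 none, and genes were named only from those with 1.

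Probe sets that exceeded 5 in 2 or more arrays of any group were kept, which left out 2186 of low signal. All 12 arrays were fitted with limma 3.58.1 in R 4.3.3, with 4 groups and the contrast insulin glargine minus Albulin, called where B was over 0 at a prior proportion of 0.01. P-values were adjusted over all 26027 probe sets with the Benjamini-Hochberg method. Where a gene had several probe sets, the brightest stood for it in lists. Lists held 30 functions and 12 cell types, and were counted, not tested. Sums of markers were taken after returning log2 values to the linear scale.

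Named genes were the 12 largest called differences each way, up to 6 called members of each list (or the 2 with the smallest p in a list with no call), and a fixed set of insulin, bile acid and control genes. A further 43 genes were chosen after their values were seen. Among them were Per1, Per2, Per3, Nr1d2, Lcn2, Steap4, Saa3, Apcs, Serpina3n, Il1rn, Itih4, Orm1, Fgg, Mmp9, Elovl6, Scd1, Thrsp, Lpin1, Hspa5, Plin2, Fkbp5 and all called genes of the closing observations except Cytip and Erbb3. Those 2 were among the 12 largest each way. Unlisted members of a list given with a value were likewise chosen after their values were seen. The comparison, the lists and the rule were chosen with earlier results of these data known. The procedure was tested on simulated data. The 24 alternatives covered filters, scaling, replicate block, array weights, prior trend, thresholds and arrays left out. With 3 arrays a group, their number limits precision. Python 3.11.15 and matplotlib 3.10.9 drew the figures.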

Additional observations from a re-analysis of the deposited data

How the results depend on the processing

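The call count of 1133 was 701 (311 higher and 390 lower) in a fit of the 6 arrays of insulin glargine and Albulin, with 655 of the 1133 among them, and 2327 (1074 and 1253) at an adjusted p under 0.05. With arrays left out singly it ranged from 729 to 1193, with 298 to 608 higher and 393 to 606 lower. The lowest counts were 729 without Albulin array 1 (336 higher, 393 lower) and 782 without Albulin array 2 (298 higher). In no alternative did a shared call change sign. Acute phase genes called lower, 12, were 7 in the fit of 6 arrays and 9 to 14 with single arrays left out. Interleukin receptor and transducer genes called lower, 5, were 3 after centring arrays on their medians, in the fit of 6 arrays and with insulin glargine array 3 and Albulin array 2 both left out (chosen after seeing the data), and 3 to 5 with single arrays left out, 3 of them without Albulin array 1 or 2, saline array 1 or 3, or insulin glargine array 1 or 2. Clock genes called higher, 5, were 9 at an adjusted p under 0.05 and 3 to 6 with single arrays left out, 3 without Albulin array 3 or insulin glargine array 2. Neutrophil markers called lower, 7, were 3 with both arrays left out, and 3 to 7 with single arrays left out. Insulin signalling genes called higher, 4, were 3 to 4. Of 108 called named genes, 67 were called in all 24 alternatives. Ins2, not called at -0.05, was 0.0040 without Albulin array 2 and 0.00048 without insulin glargine array 1. With the replicate number as a block, 999 probe sets were called, 941 of them shared. Same-numbered insulin glargine and Albulin arrays deviated from their group means with correlations of 0.08, -0.14 and -0.05. Whether same-numbered livers were processed together is not given, and these correlations cannot decide it.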

Other observations

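Several genes of leukocytes and endothelium, chosen for this paragraph after their values were seen, differed between the insulins. Thbd, thrombomodulin, had 10.13, 10.01 and 9.86 after insulin glargine, against 8.43, 8.34 and 8.37 after Albulin, 7.91, 7.91 and 8.03 after Insulin-Apo and 8.07, 7.95 and 8.13 after saline (1.62, SE 0.08, adjusted p = 1.75e-06, limma). Cytip, which regulates leukocyte adhesion, had 9.05, 9.25 and 8.81 after insulin glargine, against 7.24, 6.87 and 7.08 after Albulin (1.97, SE 0.12, adjusted p = 4.37e-06). Tgfb3, a transforming growth factor, was higher by 1.65, Rgs1, a regulator of G protein signalling, by 1.60 and Havcr2, which encodes TIM-3, by 1.19. In the other direction, P2ry13, a nucleotide receptor of myeloid cells, had 7.67, 7.80 and 7.53 after insulin glargine, against 9.73, 9.72 and 9.46 after Albulin and 8.64, 8.86 and 9.20 after saline (-1.97, SE 0.13, adjusted p = 6.68e-06). Cd180, a relative of the toll-like receptors, was lower by -1.46, and the inhibitory receptors Clec12a by -1.65, Pilra by -1.53 and Lair1 by -1.22. All 5 lower genes were also called below saline after insulin glargine. In all 10 genes the insulin glargine arrays did not overlap the Albulin arrays. The same held for all 1133 called probe sets and for 23% of all probe sets compared, so it does not set these genes apart. The part of cell numbers in these values was not tested; the macrophage marker sums were 19130, 23309 and 14161 units in the 3 insulin glargine arrays, against 23268 to 27129 after Albulin. The call of Havcr2 was lost in the fit of 6 arrays.

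Of the 4 genes of the EGF receptor family, also chosen for this section after their values were seen, Erbb3 and Egfr were called lower after insulin glargine. Erbb2 (-0.18) and Erbb4 (-0.26) were not called. Erbb3 had 8.80, 9.53 and 9.01 after insulin glargine, against 11.58, 11.40 and 11.39 after Albulin and 11.59, 11.49 and 11.30 after saline (-2.34, SE 0.15, adjusted p = 4.37e-06), and differed from saline by -0.01 after Albulin. Egfr had 12.04, 12.04 and 11.81 after insulin glargine, against 13.27, 13.15 and 13.17 after Albulin and 12.52, 12.70 and 12.60 after saline (-1.23, SE 0.12, adjusted p = 5.17e-05). Of 7 glycogen-targeting subunits of protein phosphatase 1 measured, Ppp1r3b and Ppp1r3c were called higher, and the other five differed by -0.12 to 0.28 and were not called. Ppp1r3b had 10.70, 10.65 and 10.54 after insulin glargine, against 8.90, 8.83 and 9.36 after Albulin and 10.05, 9.98 and 10.31 after saline (1.60, SE 0.17, adjusted p = 0.000142), and Ppp1r3c was higher by 1.46, a call lost in 11 of 24 alternative settings, among them 8 that left out 1 array (1.22 to 1.46, with 1.32 without array 3 of insulin glargine). Slc41a2, a magnesium transporter, had 10.10, 10.20 and 10.06 after insulin glargine, against 12.05, 11.90 and 11.64 after Albulin and 9.20, 8.83 and 9.12 after saline (-1.75, SE 0.19, adjusted p = 0.000124), and was above saline after both insulins.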
